A study of Mus musculus with 16 samples.

Results

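The genes described here are 8 components of the Hedgehog signalling pathway, chosen by name: Shh, Ptch1, Smo, Gli1, Gli2, Gli3, Hhip and Foxf1. All 8 were found among the 57180 genes of the count files, and all 8 were among the 17276 genes that passed the filter on low counts. They were measured in whole lungs of male mouse fetuses at E14.5 (embryonic day), in 16 poly(A)-selected RNA sequencing libraries. The libraries fall into 4 groups of 4. B6 control and B6 BMS493 lungs came from C57BL/6J fetuses, and A/J control and A/J BMS493 lungs from A/J fetuses. In both strains the mothers received either corn oil (control) or BMS493 by mouth from E9.5 until the lungs were taken, at a dose of 3.75 µg per g per day. BMS493 is an inverse agonist of the retinoic acid receptors as a class, so it holds the receptors in their repressing state. It was given to the whole animal, so the exposure was not limited to the lung. Litters and any pooling of lungs are not given in the labels, so the p-values measure the spread between these libraries, which may be partly technical.

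In the fetal lung, Shh is a ligand that the epithelium secretes and the mesenchyme around it receives. Without ligand, the receptor Ptch1 keeps the transducer Smo inactive. When the ligand binds, Smo is released in the primary cilium and the Gli proteins switch from repressing to activating their target genes. Gli2 is the main activator, Gli3 works largely as a repressor, and Gli1 is itself a target whose RNA is widely used as a readout of the signal. Ptch1 and Hhip are targets as well as ligand-binding brakes, and Foxf1 is a forkhead factor of the mesenchyme that the signal induces. Loss of Shh in mice leaves small lungs with little branching, and mesenchymal Foxf1 is needed for the vessels and the muscle of the lung.

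The libraries held 15207539 to 24146224 counts in genes, and no library had fewer than 680 counts of any of the 8 genes. Cyp26b1, a retinoic acid hydroxylase that the receptors induce, fell with BMS493 from 18.2 ± 5.14 to 1.47 ± 0.667 CPM (library-scaled counts per 1e6, SD, n = 4) in B6. In A/J it fell from 19.9 ± 5.73 to 1.05 ± 0.276 CPM (SD, n = 4). Rarb, a retinoic acid receptor and target, also fell in both strains. In BMS493 replicate 3 of B6 both were the least reduced of their group. Cyp26b1 was at 2.47 against 1.10 to 1.21 CPM. Rarb was at 6.67 against 2.68 to 4.42 CPM, a gap whose size depends on the count column, as given below. The same library stood farthest from its own group, by a root mean square difference of 0.493 log2 CPM over all genes against 0.307 to 0.421 for the other libraries. Its 10 lung mesenchyme markers summed to 14955 CPM, while the other 3 B6 BMS493 libraries lay between 8057 and 8842 CPM. Such a sum is weighted to the most abundant markers, and the list includes collagen genes, so it does not measure the share of mesenchymal cells. BMS493 replicate 2 of B6 held more epithelial RNA than its group, with 1690 CPM summed over 10 epithelial markers against 1221 to 1330 CPM. Markers of lung were present, since all 10 epithelial and all 10 lung mesenchyme markers were detected in every group. The 4 liver markers summed to 1.30 to 12.5 CPM per library and the 5 heart markers to 4.88 to 37.5 CPM, the highest in BMS493 replicate 3 of B6.

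Per kilobase of exon, Foxf1 had the highest level of the 8 genes at 74.4 CPM per kb, as the mean over all 16 libraries. Smo followed at 57.5, Ptch1 at 31.2, Gli1 at 23.7, Shh at 20.1, Hhip at 18.3 and, after Gli3, Gli2 at 9.72 CPM per kb. Foxf1 and Smo did not separate in B6 with BMS493, where Foxf1 ran from 49.1 to 67.9 and Smo from 50.9 to 59.0 CPM per kb. Over all libraries Smo (50.9 to 62.7) and Ptch1 (26.2 to 36.1) were apart. Below them each gene overlapped the next: Gli1 ran from 16.4 to 26.2, Shh from 17.8 to 26.5, Hhip from 15.3 to 24.4, Gli3 from 9.43 to 17.7 and Gli2 from 6.61 to 11.2 CPM per kb. The transducer and the mesenchymal target stood above the ligand and the Gli factors in every group. Of the other ligand genes, Ihh had 0 to 10 counts per library and was removed by the filter, and Dhh had 0 to 21 counts, so that Shh was the only ligand gene with a sizeable level.

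**Figure D1:**
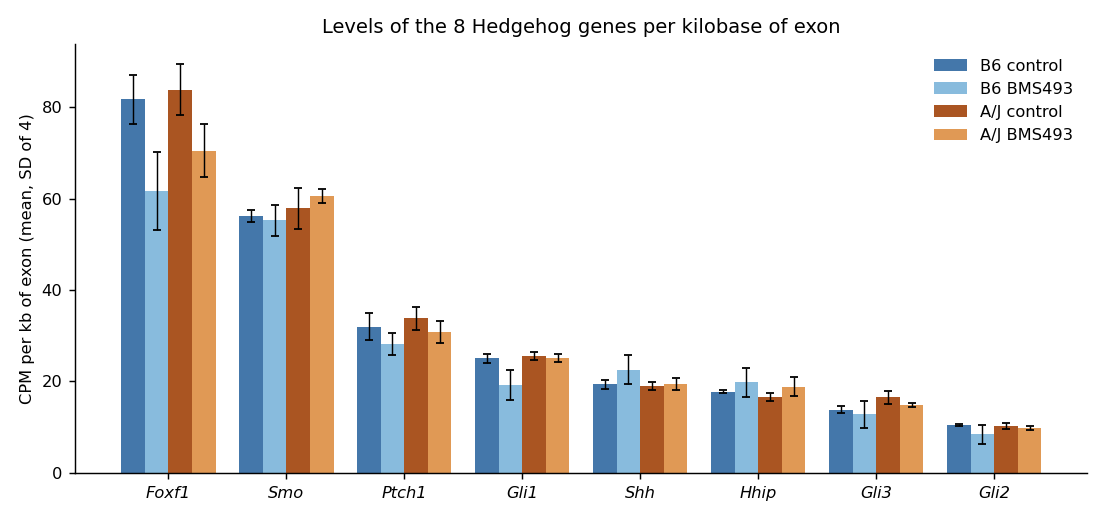
Level of each of the 8 genes in CPM per kilobase of exon, with bars for the mean of the 4 libraries of a group and error bars for 1 SD. Foxf1 is lower with BMS493 than in the controls of either strain, with Smo next, and Gli2 the lowest in every group.

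The sequences upstream of 5 of the 8 genes were taken from RefSeq (build GRCm38.p6), 250 bases up to the start site of each gene. No entry was matched for Shh, Gli1 or Foxf1. The files themselves use build GRCm39, so these coordinates place the sequence and no read count. Motifs were searched on both strands as exact letters. The Gli consensus GACCACCCA, which was in 0.225% of 32851 mouse promoters, was in 0 of the 5 promoters. The shorter core ACCACCC, which lies inside that consensus, was in 3.92% of all promoters and in 1 of the 5, that of Gli2. The retinoic acid receptor elements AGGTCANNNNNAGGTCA and AGGTCANNAGGTCA were in 0.00913% of promoters each and in 0 of the 5, and the single site AGGTCA that both contain was in 14.0% of promoters and in 0 of the 5. Shown are the promoter of Ptch1 (chr13:63565736-63565985, minus strand), the standard target of the pathway; that of Gli2 (chr1:119053620-119053869, minus strand), with the core in capitals as GGGTGGT on this strand, starting 205 bases before the start site; and those of Gas1 (chr13:60177536-60177785, minus strand) and Foxf2 (chr13:31625566-31625815, plus strand), the 2 pathway genes called with BMS493 in both strains. No motif searched was found in the Ptch1, Gas1 and Foxf2 windows, which are therefore in lower case throughout.
Ptch1: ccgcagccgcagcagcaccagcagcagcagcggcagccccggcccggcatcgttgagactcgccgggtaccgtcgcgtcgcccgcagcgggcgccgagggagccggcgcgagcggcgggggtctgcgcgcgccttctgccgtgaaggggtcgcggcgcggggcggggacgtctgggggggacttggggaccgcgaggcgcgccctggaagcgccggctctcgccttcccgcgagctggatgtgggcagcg
Gli2: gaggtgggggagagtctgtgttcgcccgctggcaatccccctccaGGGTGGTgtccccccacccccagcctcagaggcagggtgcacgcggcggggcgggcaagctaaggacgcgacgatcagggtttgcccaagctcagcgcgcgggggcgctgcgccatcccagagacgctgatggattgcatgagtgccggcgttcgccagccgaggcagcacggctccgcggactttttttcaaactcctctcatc
Gas1: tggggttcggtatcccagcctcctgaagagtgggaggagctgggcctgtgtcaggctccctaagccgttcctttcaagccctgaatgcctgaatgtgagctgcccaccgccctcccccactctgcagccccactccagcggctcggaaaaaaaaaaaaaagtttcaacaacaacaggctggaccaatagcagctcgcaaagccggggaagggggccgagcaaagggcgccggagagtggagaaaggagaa
Foxf2: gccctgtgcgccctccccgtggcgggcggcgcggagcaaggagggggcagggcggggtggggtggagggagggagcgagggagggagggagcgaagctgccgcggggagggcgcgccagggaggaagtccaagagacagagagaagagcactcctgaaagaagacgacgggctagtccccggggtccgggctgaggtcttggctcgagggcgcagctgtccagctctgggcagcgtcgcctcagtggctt

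The first comparison asked how BMS493 moved the pathway in B6 lungs. The transcriptional readout Gli1 and the mesenchymal target Foxf1 fell, to 0.765 and 0.756 of the control level, and the other 6 genes were not called. These 2 of 8 genes stand beside 0.423% of all 17276 genes called in B6 (0.347% lower and 0.0752% higher), at an adjusted p under 0.05. In A/J, edgeR and DESeq2 called 0 of the 8 genes, and edgeR called 0.486% of all genes. By unadjusted p under 0.05, 5 of the 8 passed in B6 (9.11% of all genes) and 2 in A/J (6.23%). The median log2 fold change of the 8 genes was -0.14 in B6 and -0.05 in A/J, and that of all genes tested was 0.0070 and -0.0019. In whole lung, fewer cells of a type and less RNA per cell cannot be told apart.

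**Figure D2:**
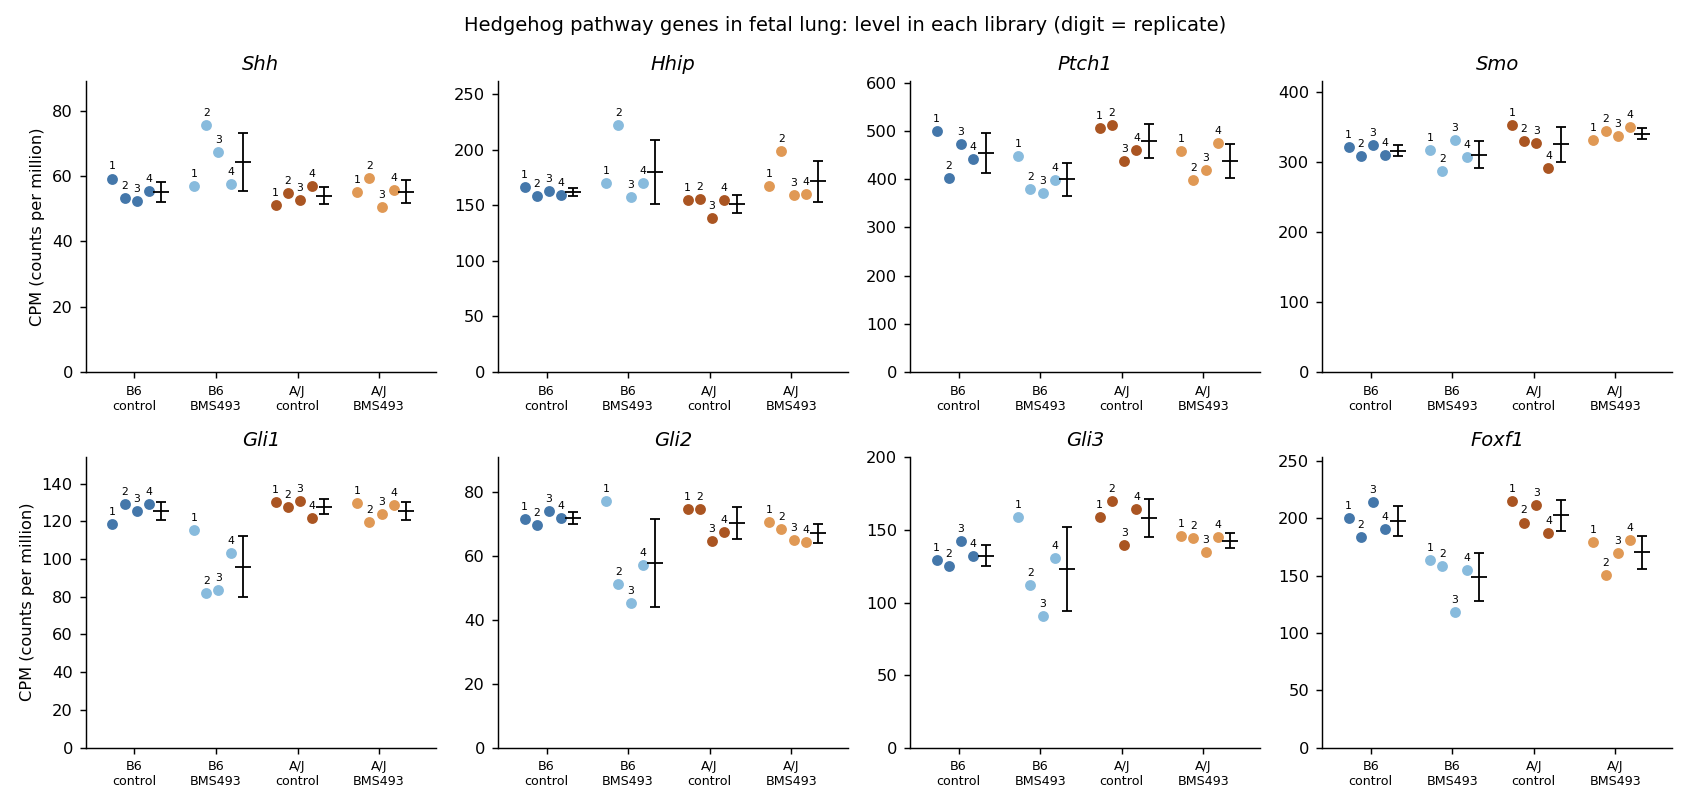
CPM of the 8 genes in each of the 16 libraries, 1 panel per gene, with the replicate number above each point and the mean ± SD of the 4 libraries at its right. The B6 BMS493 libraries of Gli1 and Foxf1 all lie below the B6 controls, and BMS493 replicate 1 of B6 is the highest of its group for Gli1, Gli2 and Gli3.

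Shh (ENSMUSG00000002633, chromosome 5), the ligand, was at 59.3, 53.5, 52.4 and 55.3 CPM in the 4 B6 controls and at 57.0, 75.6, 67.4 and 57.6 CPM in the B6 BMS493 libraries. A/J controls had 51.2, 54.9, 52.7 and 57.1 CPM, and A/J BMS493 lungs 55.2, 59.5, 50.7 and 55.9 CPM. Replicates 2 and 3 of B6 with BMS493 were above all other libraries. The other B6 BMS493 libraries lay among their controls, and the A/J groups overlapped, with replicate 2 of A/J BMS493 above and replicate 3 below every A/J control. Its log2 fold change was 0.23 in B6 (SE 0.080, edgeR adjusted p = 0.328) and 0.04 in A/J (SE 0.080, adjusted p = 1). Without BMS493 replicate 2 the B6 value was 0.14 (adjusted p = 0.647). Of the 10 epithelial markers in B6, edgeR called 0. The fold change was positive for 9 of them, 3 had an unadjusted p under 0.05 (9.11% of all genes did), and their sum went from 1177 to 1214 CPM in controls to 1221 to 1690 CPM with BMS493. Their part in the Shh level was not tested, and Shh was also measured relative to them. The log2 level of Shh minus the mean of the epithelial markers was -0.83 ± 0.071 in B6 controls and -0.80 ± 0.052 with BMS493 (SD, n = 4), a difference of 0.03 (exact two-sided permutation p = 0.543). In A/J it was -0.61 ± 0.192 in controls and -0.59 ± 0.032 with BMS493 (SD, n = 4), a difference of 0.02 (exact permutation p = 0.914). In a design of 4 against 4 the exact test cannot go below 0.0286.

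Ptch1 (ENSMUSG00000021466, chromosome 13), the receptor, was at 499, 403, 474 and 441 CPM in B6 controls and at 449, 380, 372 and 399 CPM with BMS493. Among A/J lungs it stood at 507, 511, 438 and 461 CPM in controls and at 458, 399, 420 and 475 CPM with BMS493. Groups overlapped in both strains, with 3 of the 4 B6 BMS493 libraries below the lowest control. Its log2 fold change was -0.18 in B6 (95% interval -0.34 to -0.03, adjusted p = 0.443) and -0.13 in A/J (-0.28 to 0.02, adjusted p = 0.914), so it was not called in either.

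Hhip (ENSMUSG00000064325, chromosome 8), a membrane protein that binds and sequesters the ligand, was at 166, 158, 163 and 159 CPM in B6 controls and at 170, 222, 157 and 170 CPM with BMS493. The A/J values were 154, 156, 139 and 154 CPM in controls and 167, 199, 160 and 160 CPM with BMS493. In A/J all 4 BMS493 libraries were above all 4 controls, which held for 2.03% of all genes, while in B6 the groups overlapped. On the log2 scale the fold change was 0.19 in A/J (SE 0.084, edgeR adjusted p = 0.735, or 0.0376 unadjusted) and 0.15 in B6 (adjusted p = 0.605). Hhip and Ptch1, both brakes on the ligand, thus had fold changes of opposite sign in each strain, neither called. Replicate 2 was the highest Hhip library in both BMS493 groups, and without it the log2 fold change was 0.04 in B6 and 0.11 in A/J.

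Smo (ENSMUSG00000001761, chromosome 6), the transducer, was at 321, 308, 324 and 311 CPM in B6 controls and at 317, 286, 332 and 307 CPM with BMS493. A/J lungs held 352, 330, 327 and 291 CPM in controls and 331, 344, 337 and 350.5 CPM with BMS493. Groups overlapped in both strains. The log2 fold change had a narrow 95% interval, namely -0.15 to 0.10 for B6 and -0.06 to 0.19 for A/J.

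Gli1 (ENSMUSG00000025407, chromosome 10), the target and readout of the signal, was at 118, 129, 125 and 129 CPM in B6 controls and at 115, 82.1, 83.4 and 103 CPM with BMS493. All 4 BMS493 libraries were below all 4 controls, by a wide margin in replicates 2 and 3 and a narrow one in replicate 1. Such a separation in the lower direction held for 2.63% of all genes in B6. In A/J, Gli1 was at 130.3, 128, 131 and 122 CPM in controls and at 129.5, 119.6, 124 and 129 CPM with BMS493, and the groups overlapped. The log2 fold change was -0.39 in B6 (SE 0.079, 95% interval -0.55 to -0.22, edgeR adjusted p = 0.0210) and -0.03 in A/J (SE 0.078, interval -0.19 to 0.13, adjusted p = 1). The call in B6 was lost without B6 control replicate 2 (adjusted p = 0.0985), 3 (0.0698) or 4 (0.0772) and without BMS493 replicate 2 (0.0863), with log2 fold changes of -0.32 to -0.39 in those fits. It was also lost in a fit on the 8 B6 libraries alone (adjusted p = 0.192). Without BMS493 replicate 3, the library that stood apart, Gli1 was still called (-0.33, adjusted p = 0.0401).

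Gli2 (ENSMUSG00000048402, chromosome 1), the main activator, was at 71.4, 69.7, 74.1 and 71.9 CPM in B6 controls and at 77.2, 51.2, 45.4 and 57.2 CPM with BMS493. The controls lay close together, whereas the BMS493 group held 1 library above every control and 3 below every control. For A/J the levels were 74.7, 74.5, 64.8 and 67.6 CPM in controls and 70.55, 68.5, 64.8 and 64.2 CPM with BMS493. Its log2 fold change was -0.31 in B6 (SE 0.106, edgeR adjusted p = 0.311) and -0.07 in A/J (SE 0.105, adjusted p = 1). Without BMS493 replicate 1, Gli2 in B6 was called at -0.48 (edgeR adjusted p = 0.00121). It was also called without the filter on low counts (-0.32, SE 0.075, edgeR adjusted p = 0.00606), where the fold change was nearly the same and the SE smaller.

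Gli3 (ENSMUSG00000021318, chromosome 13), the factor that works mainly as a repressor, was at 129, 125, 142 and 132 CPM in B6 controls and at 159, 112, 90.4 and 131 CPM with BMS493. In A/J it was at 159, 169.9, 139.6 and 165 CPM in controls and at 146, 145, 135 and 145 CPM with BMS493. The B6 BMS493 libraries spread to both sides of their controls, and the A/J groups overlapped. On the log2 scale the fold change was -0.10 in B6 (SE 0.116, adjusted p = 0.831) and -0.15 in A/J (SE 0.115, adjusted p = 0.967). Without BMS493 replicate 3 the B6 value was 0.01.

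The spread of the Gli genes within B6 BMS493 was wide. The SD of log2 CPM was 0.24 for Gli1, 0.33 for Gli2 and 0.34 for Gli3 there, against 0.06, 0.04 and 0.08 in B6 controls. The median SD over all genes tested was 0.20 in B6 BMS493 and 0.12 in B6 controls, so that group was more variable in general. The edgeR fit used a shared estimate of the spread of each gene for all groups. The SE, intervals and p-values of comparisons that include B6 BMS493 may therefore be too small. Gli1, Gli2 and Gli3 took their highest value in BMS493 replicate 1, their second highest in replicate 4 and their lower values in replicates 2 and 3. The summed epithelial markers were lowest in replicate 1 (1221 CPM) and replicate 4 (1231 CPM) and higher in replicate 3 (1330 CPM) and replicate 2 (1690 CPM). Whether the epithelial share bears on the Gli levels was not tested.

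Foxf1 (ENSMUSG00000042812, chromosome 8), the mesenchymal forkhead target, was at 201, 184, 214 and 191 CPM in B6 controls and at 164, 158, 119 and 155 CPM with BMS493. A/J controls had 215, 196, 212 and 187 CPM, and A/J BMS493 lungs 179.6, 150.5, 169.8 and 181 CPM. In both strains every BMS493 library was below every control, a separation that 2.63% of all genes showed in B6 and 2.84% in A/J in that direction. The mean fell from 197 ± 13.1 to 149 ± 20.6 CPM in B6 (SD, n = 4), with a log2 fold change of -0.40 (SE 0.083, edgeR adjusted p = 0.0233). In A/J the means were 203 ± 13.3 and 170 ± 14.2 CPM (SD, n = 4), and the log2 fold change of -0.25 was not called (SE 0.083, adjusted p = 0.337), though it was without the filter on low counts (-0.24, adjusted p = 0.0433). Averaged over both strains, Foxf1 fell by 0.33 on the log2 scale (SE 0.059, adjusted p = 0.00235), the 1 call among the 8 genes in a comparison that called 1.37% of all genes, 1.09% lower and 0.278% higher. That average remained past the threshold in each of the 25 alternatives, with log2 fold changes of -0.35 to -0.28. Gli1 averaged over both strains had -0.21 (SE 0.055, adjusted p = 0.0630) and was not called. It passed in 5 of the 25 alternatives, which were the fit without B6 BMS493 replicate 1 (-0.26, adjusted p = 0.00241), the one without the filter (0.00348), DESeq2 (0.0315), the replicate block (0.0474) and the first stranded column (0.0496).

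The call of Foxf1 within B6 rested on fewer libraries than the average. It was lost without B6 control replicate 1 (adjusted p = 0.0930), 3 (0.104) or 4 (0.0608) and in a fit on the 8 B6 libraries alone (0.130). BMS493 replicate 3 of B6 held both the lowest Foxf1 level (119 CPM) and the highest sum of mesenchyme markers (14955 CPM), a sum weighted to the most abundant of them. Without that library the B6 log2 fold change of Foxf1 was -0.31 (edgeR adjusted p = 0.0261). Of the 8 markers of smooth muscle, 1 was called lower in B6, beside 0.347% of all genes. All 8 had a negative fold change there, 4 with an unadjusted p under 0.05 (9.11% of all genes). Their sum ranged from 1140 to 1203 CPM in controls and from 932 to 1111 CPM with BMS493. In A/J 7 of the 8 were negative and 0 called, with 4 at an unadjusted p under 0.05 (6.23% of all genes). Sums there were 926 to 1163 CPM in controls and 888 to 1020 CPM with BMS493. Averaged over both strains, all 8 were negative and 3 were called lower (37.5%, beside 1.09% of all genes). None of the 8 was at 0, and their part in the fall of Foxf1 and Gli1 was not tested. Of the endothelial markers 5 of 8 were negative in B6 and 6 in A/J, with 0 called in either. An unadjusted p under 0.05 was reached by 0 of them in B6 and 1 in A/J (9.11% and 6.23% of all genes). Of the 10 lung mesenchyme markers, 6 were positive in B6 (1 called higher and 1 lower) and 7 in A/J (1 called higher). Among all genes, 0.0752% were called higher and 0.347% lower in B6, and 0.0637% higher in A/J. Of the 6 mesothelial markers, 3 were negative in B6 and all 6 in A/J, with 0 called in either. An unadjusted p under 0.05 was reached by 2 of them in B6 and 3 in A/J (9.11% and 6.23% of all genes). Averaged over both strains, 1 of the 6 was called lower, beside 1.09% of all genes.

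**Figure D3:**
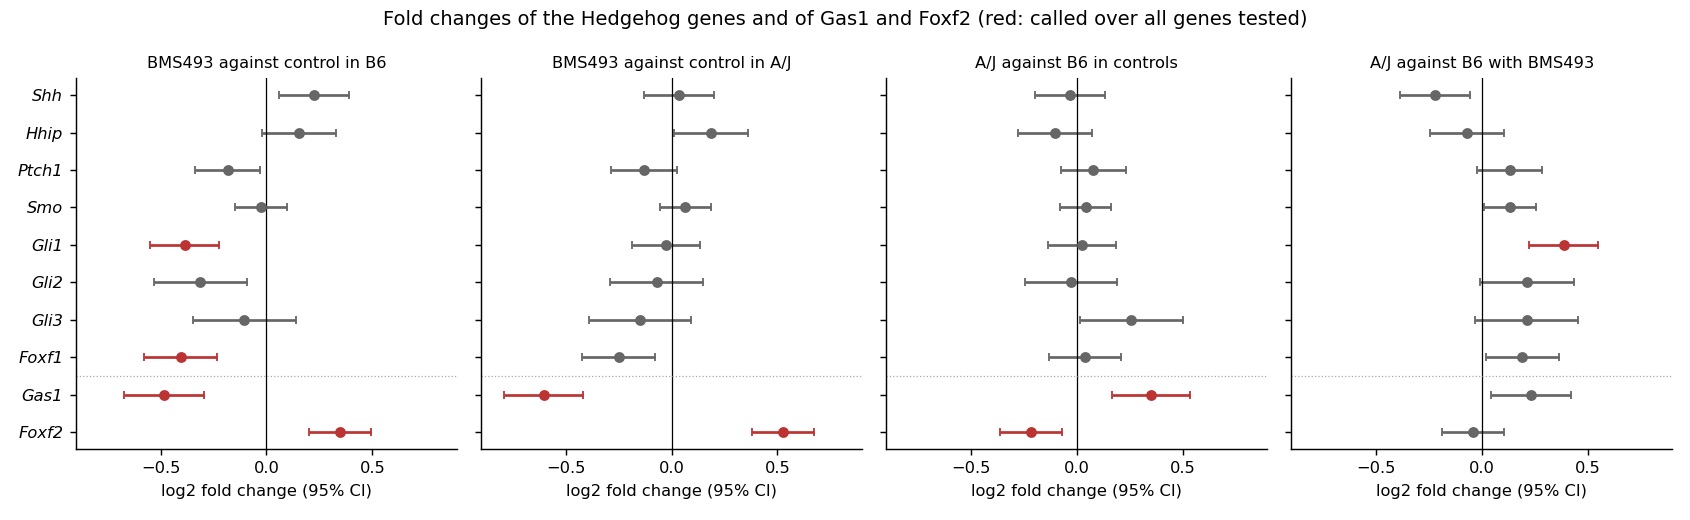
Log2 fold change with its 95% interval for the 8 genes and, under the dotted line, for Gas1 and Foxf2 in 4 comparisons, with points in red where the gene was called over all 17276 genes tested. Gli1 and Foxf1 are red for BMS493 in B6, none of the 8 is red in A/J or between the control groups, and Gas1 and Foxf2 are red in both strains.

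Whether the 2 strains differed in their response was tested as the difference of the BMS493 effects (A/J minus B6). None of the 8 genes was called there by edgeR, in a comparison that called 1 gene of all (0.00579%), and 1 of the 8 had an unadjusted p under 0.05, against 3.68% of all genes. That gene was Gli1, with a difference of 0.36 (SE 0.111, unadjusted p = 0.00341, adjusted p = 0.999). DESeq2 also called 0 of the 8. For Foxf1 the difference was 0.15 (95% interval -0.09 to 0.40), so its effect in A/J was not shown to differ from that in B6. Without B6 BMS493 replicate 3 the difference was 0.062.

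A further 56 pathway genes were listed by their known role, 55 of which were tested. With BMS493 2 were called in B6 and 2 in A/J (3.64% of the 55 in each, beside 0.423% and 0.486% of all genes), in both cases the co-receptor Gas1, lower, and the forkhead factor Foxf2, higher. The median log2 fold change of the list was 0.03 in B6 and 0.01 in A/J. By class, 0 of the 13 inhibitors and kinases downstream of Smo and 0 of the 11 cilium genes were called in either strain, with 1 of each class at an unadjusted p under 0.05 in B6 and 0 in A/J. Of all 55, 11 passed that unadjusted threshold in B6 and 5 in A/J, beside 9.11% and 6.23% of all genes. Among the 20 genes induced in the mesenchyme these were 5 in B6 and 2 in A/J, of which 1 was called in each, Foxf2. Sufu, which binds and holds the Gli proteins, had -0.08 in B6 and -0.03 in A/J on the log2 scale. The co-receptor Boc had -0.04 in B6 and 0.11 in A/J. Cdon, the third co-receptor, had 0.03 in B6 and 0.23 in A/J (adjusted p = 0.176), where its groups did not overlap, as for 2.03% of all genes in that direction. Foxl1, a forkhead factor of the same mesenchymal programme, had -0.08 and -0.07.

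**Figure D4:**
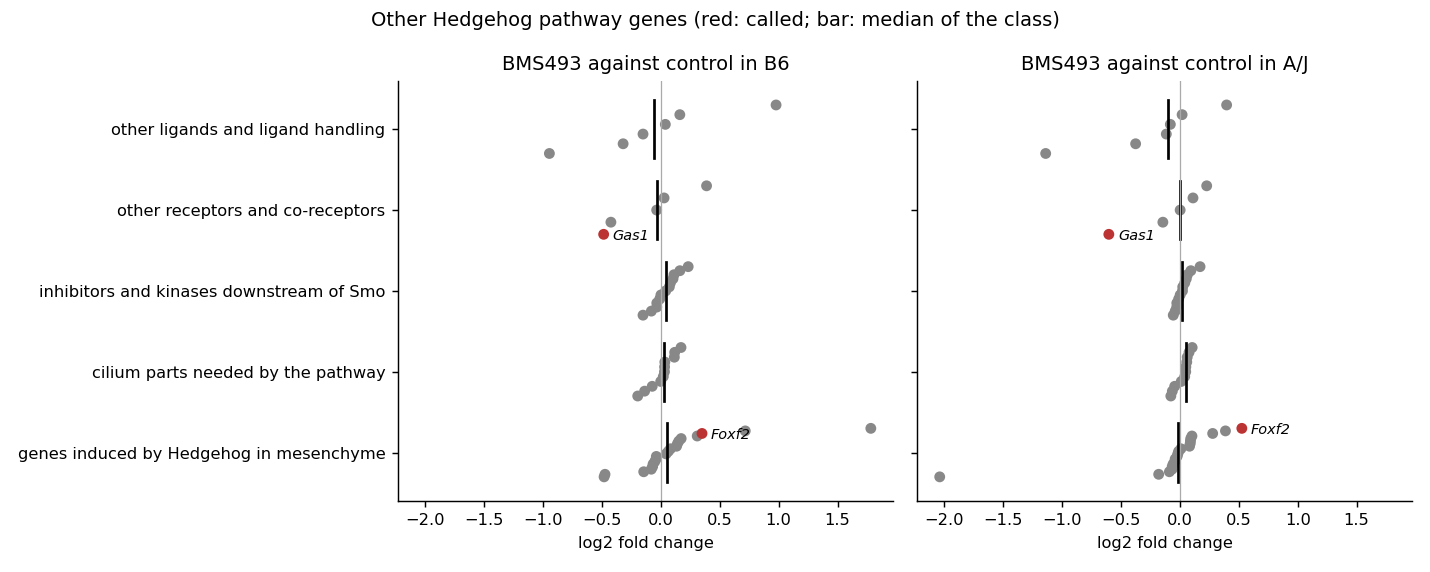
Log2 fold change with BMS493 of the 55 tested genes of the wider pathway list, by class, in B6 (left) and A/J (right), with a bar at the median of each class. Gas1 and Foxf2 are the only red (called) points in either strain, and the points farthest from 0, such as Ptchd1 in A/J, were not called.

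Gas1 (ENSMUSG00000052957, chromosome 13) encodes a membrane-anchored protein that binds Shh and helps to present it to Ptch1. It was at 45.4, 46.3, 47.5 and 42.8 CPM in B6 controls and at 31.2, 26.8, 37.6 and 34.9 CPM with BMS493. Among A/J lungs it stood at 59.3, 57.0, 58.5 and 57.2 CPM in controls and at 35.4, 34.4, 37.6 and 45.3 CPM with BMS493. Groups did not overlap in either strain, as for 2.63% of all genes in B6 and 2.84% in A/J in the lower direction. It fell by 0.49 on the log2 scale in B6 (SE 0.092, edgeR adjusted p = 0.0117) and by 0.60 in A/J (SE 0.090, adjusted p = 0.000405). Averaged over the strains it fell by 0.55 (SE 0.064, adjusted p = 8.54e-06), and this held in all 25 alternatives. Within B6 the call was lost without control replicate 2 (adjusted p = 0.0513) or 3 (0.0519), without BMS493 replicate 2 (0.0564), in a fit on the 8 B6 libraries (0.0812) and in the first (0.144) and second (0.119) stranded columns. With 1 library fewer in the B6 control group, the calls over all genes went from 73 to between 27 and 37. They were 32 without BMS493 replicate 2 of B6 and 81 without its replicate 3, where Gas1 kept its call (edgeR adjusted p = 0.00143).

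Foxf2 (ENSMUSG00000038402, chromosome 13), the closest relative of Foxf1 and like it a mesenchymal factor, went the opposite way to Foxf1. It was at 89.3, 81.2, 89.4 and 86.4 CPM in B6 controls and at 118, 111, 98.0 and 113 CPM with BMS493. The A/J values were 77.5, 74.6, 80.3 and 65.3 CPM in controls and 98.1, 104, 112 and 115 CPM with BMS493. Every BMS493 library was above every control of its strain, as for 2.08% of all genes in B6 and 2.03% in A/J. It rose by 0.35 on the log2 scale in B6 (SE 0.071, edgeR adjusted p = 0.0210) and by 0.52 in A/J (SE 0.071, adjusted p = 0.000121), and by 0.44 averaged over them (SE 0.050, adjusted p = 6.76e-06), the last in all 25 alternatives. In B6 the call was lost without any 1 of the 4 controls (adjusted p of 0.0520 to 0.128), without BMS493 replicate 2 (0.0575) or 4 (0.0557), in a fit on the 8 B6 libraries (0.0668) and in the first stranded column (0.138). Both genes were thus firm in A/J and in the average, and near the threshold in B6.

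Set against each other, the 2 Foxf genes drew closer in level with BMS493. The ratio of Foxf2 to Foxf1 CPM ranged from 0.418 to 0.453 in B6 controls, and with BMS493 it lay between 0.704 and 0.827. The A/J controls had ratios of 0.350 to 0.380 and the A/J BMS493 lungs of 0.546 to 0.689. The ratio was formed after the values of both genes were seen and is given as a description. Per kilobase, Foxf1 stayed above Foxf2 in every group, at 81.7 against 36.6 CPM per kb in B6 controls and 61.7 against 46.6 in B6 with BMS493.

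**Figure D5:**
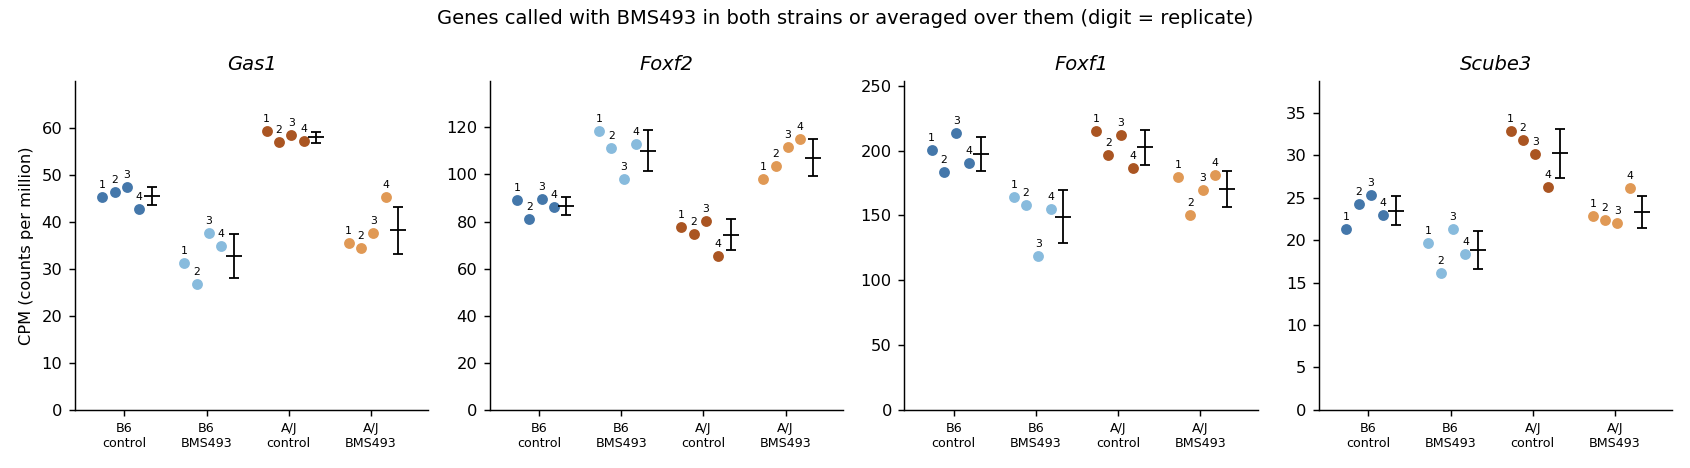
CPM of Gas1, Foxf2, Foxf1 and Scube3 in each of the 16 libraries, with replicate numbers and the mean ± SD of each group at the right. Gas1 and Foxf1 are lower and Foxf2 is higher in every BMS493 library than in every control of the same strain, while Scube3 touches its control range in B6.

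Scube3, a secreted protein of the family that helps to release lipid-bearing Hedgehog ligand, was the other listed gene called in the average, lower by 0.35 on the log2 scale (SE 0.068, edgeR adjusted p = 0.00510). It was at 21.3, 24.2, 25.3 and 23.0 CPM in B6 controls and at 19.6, 16.1, 21.4 and 18.3 CPM with BMS493. A/J lungs held 32.8, 31.8, 30.1 and 26.3 CPM in controls and 22.8, 22.4, 22.0 and 26.1 CPM with BMS493. Its groups met in B6 and were separate by a small margin in A/J, as for 2.84% of all genes in the lower direction. The call in the average was lost in the second stranded column (-0.28, adjusted p = 0.0907). Within the strains it was not called (adjusted p = 0.213 in B6 and 0.0844 in A/J), but in A/J it was called with DESeq2 (adjusted p = 0.0172), without the filter (0.0333), with only the A/J libraries (0.0365) and without A/J control replicate 4 (0.0294). With 3 of 55 listed genes called, the average came to 5.45% of the list, beside 1.37% of all genes.

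The second question was how A/J lungs differed from B6 lungs. In controls, 16.9% of all genes tested were called (7.04% with A/J above B6, 9.84% below), but edgeR and DESeq2 called 0 of the 8 genes. Log2 fold changes (A/J minus B6) of the 8 ran from -0.10 for Hhip to 0.26 for Gli3. Gli3 had an unadjusted p of 0.0383 (edgeR adjusted p = 0.143) and was the 1 gene of the 8 with an unadjusted p under 0.05, against 29.0% of all genes. It was called in a fit on the 8 control libraries alone (0.26, adjusted p = 0.00345) and without the filter on low counts (0.25, adjusted p = 0.00971). Hhip was lower in every A/J control than in every B6 control, as 13.6% of all genes were, with means of 151 ± 8.13 and 162 ± 3.74 CPM (SD, n = 4, adjusted p = 0.469). Gli1 differed by 0.03 (95% interval -0.13 to 0.19) and Foxf1 by 0.04 (-0.13 to 0.21). Relative to the epithelial markers, Shh was higher in A/J controls by 0.22 (exact permutation p = 0.0571, adjusted over 4 comparisons 0.114). A/J control replicate 4 was at -0.34 and the other 3 at -0.78 to -0.66, and without it the difference was 0.13. Of the epithelial markers, 8 of the 10 were lower in A/J controls and 3 called.

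Of the 55 other pathway genes, 9 were called between the controls, 5 higher and 4 lower in A/J. Their share of 16.4% was close to the 16.9% of all genes, so the list did not stand out by its count. Highest of those called, by log2 fold change, were Scube3 at 0.37 (adjusted p = 0.00756), Stk36, a kinase related to Drosophila Fused, at 0.35 (adjusted p = 0.0215) and Gas1 at 0.35 (adjusted p = 0.00706). Lowest of those called were the forkhead gene Foxs1 at -1.24 (adjusted p = 0.00781, at 1.02 ± 0.180 CPM in A/J and 2.40 ± 0.669 in B6, SD, n = 4), the Wnt ligand Wnt5a at -0.69 (adjusted p = 7.42e-05) and Foxf2 at -0.22 (adjusted p = 0.0382). Cdon was also lower, at -0.21 (adjusted p = 0.0295). Among the lung mesenchyme markers 5 of 10 were also called lower in A/J controls, with sums of 5661 to 7362 CPM against 9253 to 9592 CPM in B6, as were 6 of the 8 endothelial markers. Their part in the values of the mesenchymal genes was not tested. Both genes called with BMS493 thus also differed between the control strains, as Gas1 was higher and Foxf2 lower in A/J controls. The Foxf2 difference was lost without B6 control replicate 1, 3 or 4 (adjusted p of 0.0753 to 0.105) and without A/J control replicate 2 (0.0741) or 4 (0.158), and in the first and second stranded columns (0.0788 and 0.0952) and their sum (0.0559).

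With BMS493, 20.0% of all genes were called between the strains (7.93% with A/J above B6, 12.0% below), and 1 of the 8 was, Gli1. By unadjusted p under 0.05, 4 of the 8 and 31.4% of all genes passed. Its A/J libraries, at 119.6 to 129.5 CPM, were all above the B6 libraries, at 82.1 to 115 CPM, a separation shown by 8.74% of all genes in that direction. The log2 fold change was 0.39 (SE 0.079, edgeR adjusted p = 0.000842), and it was past the threshold in all 18 alternatives (0.30 to 0.49). The B6 BMS493 libraries enter both this comparison and the one of BMS493 in B6, so the 2 Gli1 results share their low values. Shh had -0.22 (SE 0.080, adjusted p = 0.0532), Foxf1 0.19 (adjusted p = 0.112) and Smo 0.13 (adjusted p = 0.118). Without B6 BMS493 replicate 3, Foxf1 had 0.093 (edgeR adjusted p = 0.371). Foxf1 passed the threshold in 2 of 18 alternatives, without the filter (0.20, adjusted p = 0.0302) and without A/J BMS493 replicate 2 (0.25, adjusted p = 0.0431). Smo passed in 1, without B6 BMS493 replicate 3 (0.16, adjusted p = 0.0492). Shh passed the threshold in 7 of 18 alternatives, among them both stranded columns (-0.31, adjusted p = 0.00843, and -0.26, adjusted p = 0.0411). Without B6 BMS493 replicate 2, the library with the most epithelial RNA, it was -0.13 (adjusted p = 0.277). Without B6 BMS493 replicate 1, 4 of the 8 and 22.1% of all genes were called, with Gli2 at 0.39 (adjusted p = 0.000515) and Gli3 at 0.36 (adjusted p = 0.00448) added to Gli1 and Shh (-0.27, adjusted p = 0.0173). Without replicate 3 instead, Gli2 had 0.11 (adjusted p = 0.450) and Gli3 0.088 (adjusted p = 0.526). Beside Shh, 9 of the 10 epithelial markers were lower in A/J with BMS493 and 5 called, and Shh relative to them was higher by 0.20 (exact permutation p = 0.0286, adjusted over 4 comparisons 0.114). All 8 endothelial markers were also called lower in A/J, and their part in these values was not tested.

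Among the 55 other genes, 15 were called between the strains with BMS493 (27.3%, beside 20.0% of all genes), 8 higher and 7 lower in A/J. The highest of those called were Evc, a ciliary protein that passes on the Smo signal, at 0.40 (adjusted p = 0.000482), Hhat, the enzyme that adds palmitate to the ligand, at 0.39 (adjusted p = 0.0346), and the transcription factor gene Osr1 at 0.38 (adjusted p = 0.0446). The lowest of those called were Ptchd1 at -2.60 (adjusted p = 0.00933), Scube2 at -1.31 (adjusted p = 0.000817) and Foxs1 at -1.26 (adjusted p = 0.00642). Ptchd1 had at most 0.186 CPM in A/J with BMS493 and 0 counts in 2 of those libraries, so its fold change depends on the prior count. Scube2, which helps to release the ligand from the cell that makes it, was at 1.85 ± 0.524 CPM in A/J and 4.60 ± 1.59 CPM in B6 (SD, n = 4).

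Genes that followed each of the 8 most closely over the 16 libraries were ranked by the root mean square difference in centred log2 CPM, among 14378 genes with a mean of at least 1 CPM. This is a description over libraries that differ in strain, treatment and depth. Closest to Shh were Sft2d2 (0.073), Abhd17b (0.076) and Aldh3a2 (0.084), to Ptch1 Tril (0.074), Pygo1 (0.078) and Cep68 (0.080), and to Hhip Heca (0.062), Itga1 (0.066) and Fzd5 (0.071). Closest to Smo were Tbc1d16 (0.036), Ptpn11 (0.045) and Actr1b (0.046). For the Gli genes they were Cacng7 (0.092), Smyd5 (0.092) and Efnb3 (0.093) for Gli1, Pcdh18 (0.096), Ubqln2 (0.096) and 2410002F23Rik (0.097) for Gli2, and Ror1 (0.066), Slc38a4 (0.080) and Asxl3 (0.081) for Gli3. Foxf1 was followed by Mmp17 (0.102), Fblim1 (0.109) and Loxl2 (0.110). These distances stand beside each gene's own spread about its mean, from 0.083 for Smo to 0.219 for Foxf1. None of the 8 was among the 3 genes closest to another of them.

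Some of these genes share exon bases with genes on the other strand, which the column without strand cannot assign. Summing both stranded columns gave a median of 35.4% more counts for Shh, 24.7% for Gli1, 20.0% for Foxf1, 37.1% for Gas1 and 19.2% for Foxf2, and 0 for Ptch1, Smo, Gli2 and Gli3. The levels per kilobase above leave those shared counts out. Rarb was affected too. Its B6 BMS493 replicate 3 had 100 counts without strand and 116 and 125 in the stranded columns, and replicate 1 had 53 against 111 and 86. The size of the Rarb gap of replicate 3 thus depends on the column. Dhh had up to 27 counts in a stranded column. With the sum of both stranded columns, chosen after the data were seen, Gli1 and Foxf1 were still called in B6. Gas1 and Foxf2 in B6 were not (edgeR adjusted p = 0.113 and 0.0623). The calls of Gas1 and Foxf2 in A/J and in the average remained. In the second stranded column Gli1 in B6 had -0.31 (adjusted p = 0.0538).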

How the data were processed

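The authors deposited 1 file of raw counts for each library, covering 57180 genes plus 4 summary lines. Per the submitters' processing notes, FastQC, cutadapt and STAR were used with build GRCm39; versions, read length and annotation are not given in the sources used here. The first strand column held 51.0% to 52.0% of stranded counts, so the deposited counts without strand were used. Symbols, exon lengths and overlaps came from GENCODE M21 (51884 genes matched, 98.9% of counts), and promoters from RefSeq (GRCm38.p6). In edgeR 4.0.16 (R 4.3.3), filterByExpr kept 17276 genes, TMM scaled the libraries, and robust quasi-likelihood tests of contrasts between 4 group means were fitted to all 16 libraries, with Benjamini-Hochberg adjustment over all genes and calls at an adjusted p under 0.05. CPM are TMM-scaled. Log2 levels used a prior count of 2. Descriptions used Python 3.11.15 with pandas 2.3.3. The fit was tested on simulated data. Named genes were the 8 members, their nearest relatives (1 is not reported here), and listed genes called (the 3 highest and 3 lowest if over 6), plus Cyp26b1 and Rarb. Members, lists and rules were chosen with earlier results of these data known. Alternatives were RLE scaling, DESeq2 1.42.0, other filters, strand columns or blocks, only the compared libraries, and leaving out each library.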

Additional observations from a re-analysis of the deposited data

Results flagged for a closer look

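In 3 of 60 groups of 4 libraries examined (the 8 genes, their nearest relatives and Shh relative to epithelium), 1 library lay far from the other 3, measured as its gap to the nearest of them divided by the range of the group. Chance alone gives such a gap in about 1 of 20 groups. Gli3 in A/J BMS493 replicate 3 was at 135 CPM against 144.5 to 145.7 CPM in the others, a gap of 0.894 of the range. Hhip in A/J control replicate 3 was at 139 CPM against 154 to 156 CPM, a gap of 0.928, on the side away from the A/J BMS493 libraries. Shh relative to the epithelial markers was -0.72 on the log2 scale in B6 control replicate 1 against -0.87 to -0.86 in the others, a gap of 0.885.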

How the results depend on the processing

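With 4 libraries a group, the B6 calls depended on single libraries and on which libraries were fitted. The fall of Foxf1 averaged over strains, of Gas1 and the rise of Foxf2 in A/J and averaged, and the higher Gli1 in A/J with BMS493 kept their calls in every alternative run. Of the 8 genes, 2 were called in B6 (0.423% of all genes), 0 in A/J (0.486%), 1 averaged (1.37%), 0 between controls (16.9%) and 1 between strains with BMS493 (20.0%). Each percentage here is the share of all genes called in the same fit. In B6 the count was 3 without a filter, 1 in the second stranded column (0.394%) and 0 with only the compared libraries (0.167%). With 1 library left out it was 0 to 3, with 0 lacking B6 control replicate 3 (0.21%) or 4 (0.198%). In A/J it was 1 without a filter (0.509%). Averaged it was 2 with DESeq2 (2.29%) and in the first stranded column (1.24%), and 5 without a filter (1.39%). With 1 library left out it was 1 to 3, the 3 without B6 BMS493 replicate 1 (2.1%). Between controls it was 1 without a filter (9.22%) or with only the compared libraries (22.6%). Between strains with BMS493 it was 5 without a filter (10.6%), 2 in the first (16.9%) and second (16.6%) stranded columns and 2 in their sum. With 1 library left out it was 1 to 4, the 4 without B6 BMS493 replicate 1 (22.1%). For Gli2 in B6 (SE 0.075 against 0.106) and Foxf1 in A/J (0.066 against 0.083), the SE was smaller without a filter at nearly the same fold change. The causes were not tested.

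With the replicate number as a block, the count was 2 in B6 (0.411% of all genes called), 0 in A/J (0.533%) and 2 averaged (1.5%). Gli1 was the gene added to the average, at -0.21 (edgeR adjusted p = 0.0474). The block fit called 0 for the difference (0.00579%), 0 between controls (17.2%) and 1 with BMS493 (20.1%). Of 24 same-numbered pairs of libraries, 3 had correlated deviations above 0.1, and 7 of 16 libraries correlated best with their own number. The mean correlation of same-numbered libraries ran from -0.041 to 0.064 over the pairs of groups. Whether a number marks a shared litter or batch was not tested.

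Log2 values near 0 changed sign. In the first stranded column Shh in A/J was -0.0249, the Hhip difference -0.0209 and Gli1 between controls -0.0056, and in the sum of columns the last was -0.0050. In the second stranded column Smo averaged was -0.0053. With 1 library left out, values ranged from -0.0550 to 0.00964 for Shh between controls, from -0.0025 to 0.0752 for Shh in A/J, from -0.0613 to 0.0127 for Smo in B6, from -0.0058 to 0.0401 for Smo averaged, from -0.0571 to 0.0119 for Gli2 between controls and from -0.25 to 0.0121 for Gli3 in B6. Between strains with BMS493 they ranged from -0.15 to 0.0495 for Hhip and from -0.10 to 0.0034 for Foxf2. Differences of effects ranged from -0.16 to 0.10 for Gli3, from -0.0472 to 0.15 for Hhip and from -0.13 to 0.0082 for Scube3. Shh relative to epithelium in A/J was -0.0695 with only Cdh1, Epcam and Nkx2-1, -0.0035 without Krt19 and -0.0396 to 0.11 with 1 library left out. Of the other fold changes of the 8 genes, Gas1, Foxf2 and Scube3 under an alternative, 1250 kept direction and side of the threshold, 39 lost the threshold and 35 gained it.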

Other observations

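The ratio of Ptch1 to Hhip, the 2 ligand-binding brakes, was lower with BMS493 in most libraries. It ranged from 2.55 to 3.00 in B6 controls and from 1.71 to 2.64 in B6 with BMS493, and from 2.98 to 3.29 in A/J controls and from 2.01 to 2.97 in A/J with BMS493. The groups touched in B6 and were separate in A/J by a small margin. The ratio of Gli1 to Gli3 ranged from 0.879 to 1.03 in B6 controls and from 0.725 to 0.922 in B6 with BMS493, and in A/J from 0.741 to 0.936 in controls and from 0.827 to 0.917 with BMS493, so its groups overlapped in both strains. Both ratios were formed after the values were seen and have no test.

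Scube2 was higher in every B6 BMS493 library than in every B6 control, at 3.08 to 6.81 CPM against 1.93 to 2.68 CPM, and was not called (log2 fold change 0.98, edgeR adjusted p = 0.124), a separation that 2.08% of all genes showed. Osr1 was lower in every B6 BMS493 library, at 16.8 to 29.0 CPM against 29.2 to 31.4 CPM in controls, as for 2.63% of all genes, and was not called (-0.47, edgeR adjusted p = 0.171). Both were singled out after their values were seen.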
